A study of Mus musculus with 8 samples.

Results

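Myocardin, its partner SRF and 7 regulators of smooth muscle tone were followed through the developing mouse trachea, with and without Wls in the airway epithelium. The 9 genes were Myocd, Srf, Ppp1r12a, Ppp1r12b, Chrm2, Chrm3, Ednra, Prkg1 and Pde5a, chosen by gene symbol with earlier results of these data known. All 9 were found among the 37282 symbols of the deposited tables. RNA was sequenced from dissected whole tracheae of 8 libraries in 4 groups of 2. The groups were WlsShhCre embryos at stage E11.5 (E for embryonic day), control embryos at E11.5, WlsShhCre embryos at E13.5 and control embryos at E13.5. Wls is the carrier that brings Wnt ligands to the cell surface. Shh is expressed by the tracheal epithelium, so Cre made from that locus removes Wls there and spares the mesenchyme, where smooth muscle forms, but it also acts in other tissues that express Shh. The labels call the other genotype only control and do not give the alleles that these embryos carried. They do not say whether the libraries of a group came from separate embryos, pools or litters, so the p-values measure only the spread between these libraries, which may be technical.

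Myocardin is a coactivator that binds the transcription factor SRF on CArG boxes, short sequences in front of many contractile genes, and it drives the smooth muscle programme. Tone is then set by the balance between myosin light chain kinase and myosin phosphatase. Acetylcholine and endothelin raise calcium and inhibit the phosphatase through receptors of the G protein family, whereas cyclic GMP relaxes the muscle through its kinase until phosphodiesterases break it down. In the trachea the muscle lies in the dorsal wall, opposite the cartilage rings.

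The proximal promoter sequences were taken from RefSeq on build GRCm38.p6, in which 8 of the 9 genes had an entry. They are shown for 3 genes, Srf because it held the CArG boxes and Chrm2 and Pde5a because they were among the genes that rose most at E13.5. Each line gives the 250 bases before the annotated start, 5′ to 3′ on the gene's own strand. The capitals mark CArG boxes. The regions are chr17:46556163-46556412 on the minus strand for Srf, chr6:36387834-36388083 on the plus strand for Chrm2 and chr3:122728908-122729157 on the plus strand for Pde5a.
Srf: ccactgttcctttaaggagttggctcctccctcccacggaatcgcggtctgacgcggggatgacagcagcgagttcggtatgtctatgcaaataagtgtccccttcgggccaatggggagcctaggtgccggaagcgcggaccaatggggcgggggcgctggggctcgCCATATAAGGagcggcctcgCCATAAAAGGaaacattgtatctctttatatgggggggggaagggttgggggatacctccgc
Chrm2: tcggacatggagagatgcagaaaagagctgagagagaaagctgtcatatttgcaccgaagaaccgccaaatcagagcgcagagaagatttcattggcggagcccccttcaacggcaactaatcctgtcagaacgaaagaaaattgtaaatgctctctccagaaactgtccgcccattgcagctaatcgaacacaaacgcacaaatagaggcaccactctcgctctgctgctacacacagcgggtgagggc
Pde5a: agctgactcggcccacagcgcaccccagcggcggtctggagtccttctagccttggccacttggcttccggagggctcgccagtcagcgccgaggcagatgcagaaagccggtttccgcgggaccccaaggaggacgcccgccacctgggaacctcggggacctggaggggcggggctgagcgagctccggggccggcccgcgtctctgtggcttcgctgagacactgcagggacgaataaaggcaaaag
The window of Srf held 2 CArG boxes, CCATATAAGG starting at base -82 and CCATAAAAGG starting at base -62 from the start. Motifs were searched in the whole promoter entry, which also held bases after the start (for Srf chr17:46556113-46556412). A CArG box was taken as CCWWWWWWGG, with W for A or T. None was found on either strand in the entries of the other 7 genes. Over all 32851 promoter entries, 1.63% held a CArG box. The motif CTTTGAT, a form of the TCF/LEF site, was searched on both strands too, was found in none of the members' entries and was held by 3.73% of all promoter entries. These matches describe letters in a window and say nothing of binding.

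Total estimated counts per library lay between 9.90 and 18.48 M, and both E13.5 WlsShhCre libraries were deeper than the 6 others. Levels are given in CPM, for which library sizes were adjusted with TMM factors (trimmed mean of M-values), and as the authors' RPKM, per kilobase of gene model, where genes are compared with each other. Wls, the targeted gene, stood at 118 and 109 CPM in WlsShhCre libraries against 155 and 164 CPM in controls at E11.5. At E13.5 it stood at 73.9 and 71.7 CPM in WlsShhCre libraries against 168 and 158 CPM in controls, and it fell at both stages (edgeR quasi-likelihood test, adjusted p = 0.00302 and 1.46e-07). The epithelial marker Nkx2-1 was present in all 8 libraries, at 52.2 to 93.3 CPM, and the smooth muscle actin gene Acta2 at 97.2 to 977 CPM. Xist, made in female cells, was lower in each WlsShhCre library than in each control at its stage and stood at only 6.34 CPM in E13.5 WlsShhCre replicate 1, against 1224 CPM in WlsShhCre replicate 2 and 2673 and 1841 CPM in controls. The Y-linked Ddx3y stood at 52.2 and 61.8 CPM in WlsShhCre libraries and 43.2 and 32.8 CPM in controls at E11.5, and at 106 and 66.8 CPM in WlsShhCre libraries and 19.8 and 48.2 CPM in controls at E13.5. Both transcripts were thus detected in all 8 libraries, in unequal amounts, and the part of this in the results was not tested.

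At E13.5 most of the 9 genes were higher in WlsShhCre tracheae. Chrm2, Myocd and Pde5a rose most, by 6.27, 3.27 and 3.09 times, followed by Chrm3 (2.05-fold), Ppp1r12b (1.72-fold), Srf (1.32-fold) and Ppp1r12a (1.18-fold). The endothelin receptor gene Ednra fell to 0.719 of the control level, and the cGMP kinase gene Prkg1 did not pass the test. Thus 8 of 9 genes passed an adjusted p of 0.05, 7 higher and 1 lower, while 11.8% of the 14901 genes tested passed, 5.97% higher and 5.81% lower. Without E13.5 control replicate 1, 5 of the 9 genes passed. The median log2 fold change was 0.78 over the 9 genes and 0.00 over all genes tested. These contrasts are no independent test, since the 9 genes were chosen with earlier results of these data known. At E11.5 none of the 8 genes that could be tested passed, where 0.362% of all genes did, 0.0738% higher and 0.289% lower. Myocd and Ednra had an unadjusted p under 0.05 at that stage, 2 of 8 genes, where 7.54% of all genes tested did, and DESeq2 and limma-voom each called 0. The median over the 8 genes at E11.5 was -0.07, and 6 of 8 lay below 0. In whole tracheae, more cells that make a transcript and more transcript per cell cannot be told apart.

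**Figure D1:**
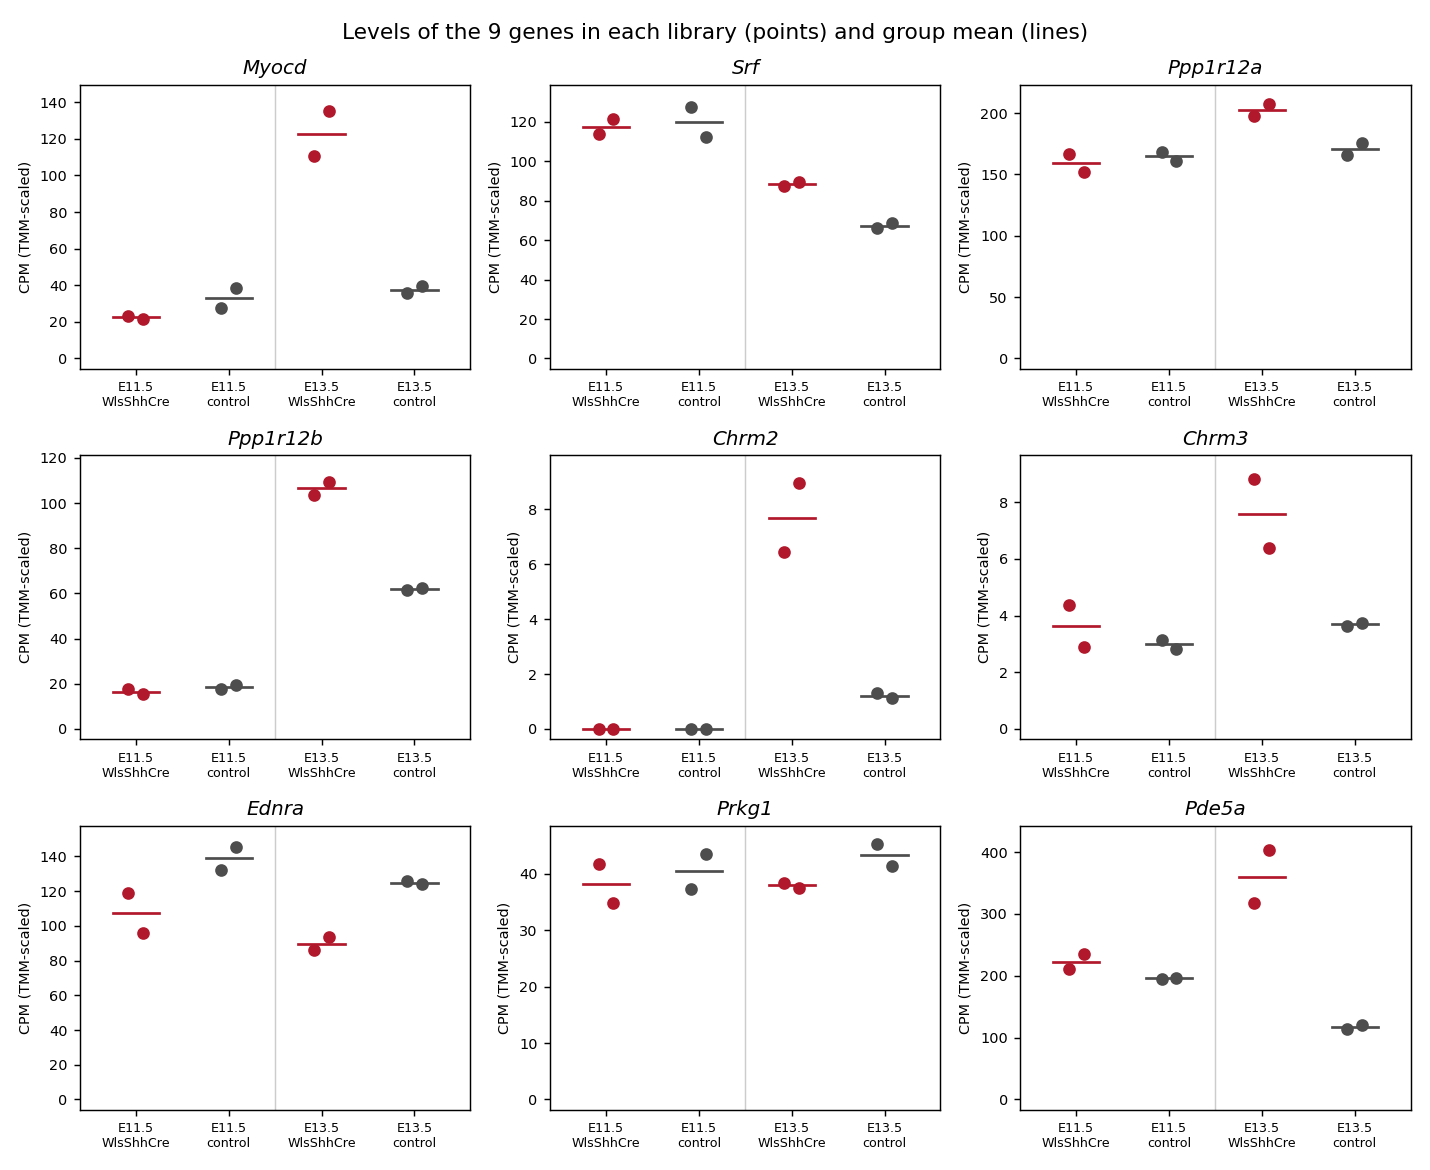
Level of each of the 9 genes in every library, in CPM on a linear axis from 0, with points for libraries and lines for the means of 2. At E13.5 the WlsShhCre points of Myocd (110 and 135 CPM) and Pde5a (318 and 403 CPM) lie far above the control points (35.6 and 39.6, and 114 and 120 CPM), and those of Ednra lie below; levels of Myocd and Ppp1r12b cannot be compared between stages because their gene models differed.

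Myocd encodes the muscle coactivator itself (Entrez 214384). At E13.5 it stood at 110 and 135 CPM in WlsShhCre libraries and at 35.6 and 39.6 CPM in controls. The means were 123 ± 17.6 CPM in WlsShhCre libraries and 37.6 ± 2.88 CPM in controls (SD, n = 2 each). Both WlsShhCre libraries were above both controls, with a log2 fold change of 1.71 (SE 0.16, edgeR adjusted p = 6.04e-04). At E11.5 the order was the opposite, with 23.0 and 21.8 CPM in WlsShhCre libraries and 27.5 and 38.6 CPM in controls. The groups did not overlap there either, but the controls lay far apart and the log2 fold change of -0.57 (SE 0.19) did not pass the test (edgeR adjusted p = 0.463). The difference between the genotype effects of the stages, the interaction, was 2.27 on the log2 scale (SE 0.24, edgeR adjusted p = 0.00401), the largest of the 8 genes. Per length, Myocd at E13.5 had 13.8 and 17.2 RPKM in WlsShhCre libraries, against 4.47 and 4.95 RPKM in controls. Its gene model spanned 5327 bases in the E11.5 table and 8043 bases in the E13.5 table, as count and RPKM imply, so no difference between stages is given for it. The choice of scale would even set the direction in controls, whose CPM was higher at E13.5 while their RPKM, 4.47 and 4.95, was lower than the 5.12 and 7.10 RPKM at E11.5.

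Srf encodes the DNA-binding partner of myocardin, which also serves growth-factor responses in other cells (Entrez 20807). Its E13.5 levels were 87.6 and 89.3 CPM in WlsShhCre libraries and 65.9 and 68.5 CPM in controls. Both WlsShhCre libraries were above both controls by more than the spread within a group, and Srf rose by 0.40 on the log2 scale (SE 0.07, edgeR adjusted p = 0.00222). At E11.5 it stood at 114 and 121 CPM in WlsShhCre libraries and at 128 and 112 CPM in controls, and the groups overlapped (log2 fold change -0.03, SE 0.07, edgeR adjusted p = 0.986). Of the 6 genes that could be compared between stages, Srf alone passed as lower at E13.5 in both genotypes. The stage effect on the log2 scale, E13.5 over E11.5, was -0.41 in WlsShhCre tracheae and -0.84 in controls (edgeR adjusted p = 2.78e-04 and 1.70e-06). The difference of 0.43 (SE 0.10) passed narrowly (edgeR adjusted p = 0.0310) and did not pass with DESeq2 (0.0741), with limma-voom (0.0721), with a fit that was not robust (0.0530) or without any of 6 of the 8 libraries, with adjusted p between 0.0525 and 0.146. The 2 left out with the call kept were E11.5 control replicate 2 and E11.5 WlsShhCre replicate 2.

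Ppp1r12a and Ppp1r12b encode the targeting subunits that bring the phosphatase to myosin. Ppp1r12a is expressed in nearly all cells and Ppp1r12b mainly in muscle. Ppp1r12a (Entrez 17931) stood at 197 and 208 CPM in E13.5 WlsShhCre libraries and at 166 and 176 CPM in controls. The groups did not overlap, and the gene rose slightly, by 0.24 on the log2 scale (SE 0.06, edgeR adjusted p = 0.0187). The call was lost without E13.5 control replicate 1 (0.149) or WlsShhCre replicate 2 (0.0970). At E11.5 it stood at 167 and 152 CPM in WlsShhCre libraries and at 169 and 161 CPM in controls, which overlapped (log2 fold change -0.05, SE 0.06, edgeR adjusted p = 0.959).

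Ppp1r12b (Entrez 329251) changed more. At E13.5 it stood at 103 and 110 CPM in WlsShhCre libraries and at 61.7 and 62.4 CPM in controls. The libraries of a group lay close together and the groups far apart, and the log2 fold change was 0.78 (SE 0.07, edgeR adjusted p = 1.57e-05), the lowest adjusted p of the 9 genes. At E11.5 it stood at 17.6 and 15.4 CPM in WlsShhCre libraries and at 17.6 and 19.3 CPM in controls, which overlapped (log2 fold change -0.16, SE 0.10, edgeR adjusted p = 0.807). The interaction was 0.94 (SE 0.12, edgeR adjusted p = 8.54e-04). The balance between the transcripts of the subunits differed between the genotypes at E13.5, though the ratio was not tested. Ppp1r12b had 0.242 and 0.244 of the RPKM of Ppp1r12a in WlsShhCre libraries and 0.172 and 0.164 in controls. At E11.5 this ratio was 0.0937 and 0.0900 in WlsShhCre libraries and 0.0924 and 0.106 in controls, and the groups overlapped. The ratio is not compared between stages, because the gene model of Ppp1r12b spanned 6185 bases in the E11.5 table and 11874 bases in the E13.5 table. The antisense transcript Gm28892 shares 710 of the 14983 exonic bases of Ppp1r12b, and its reads cannot be told apart without strand.

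The muscarinic receptors answer acetylcholine from the airway nerves. Chrm3 carries most of the contraction of adult airway muscle and Chrm2 couples to an inhibitory G protein. Chrm2 (Entrez 243764) was listed at 0 in all 4 E11.5 libraries. They hold 21.3 M counts in the WlsShhCre group and 22.9 M in the control group. A fixed floor of 3 counts over a group is 0.141 and 0.131 CPM there. The upper end of the 95% Poisson interval for 0 counts is 3.69 counts. At E13.5 it had 120 and 153 estimated counts in WlsShhCre libraries and 13.54 and 11.58 in controls, or 6.45 and 8.95 CPM in WlsShhCre libraries and 1.31 and 1.12 CPM in controls. The groups were far apart, and summed over a group these are 273 counts (95% Poisson interval 242 to 307) in WlsShhCre libraries and 25.1 (16.2 to 36.9) in controls, intervals that cover counting error only. Chrm2 rose by 2.65 on the log2 scale (SE 0.32, edgeR adjusted p = 2.39e-04), the largest change of the 9 genes. No gene model length could be derived for Chrm2 at E11.5, so no fold change between stages is given. Of the 11800 tested genes with at least the 298 counts that Chrm2 had over the E13.5 libraries, 25 were at 0 throughout E11.5. An opposite-strand transcript, 9330158H04Rik, shares 142 of the 6053 exonic bases of Chrm2 in the annotation used, and the library kit does not mark strand. The gene model that count and RPKM imply for Chrm2 at E13.5 spanned only 1231 bases. The overlap may therefore not describe the bases counted.

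Chrm3 (Entrez 12671) was a low gene throughout. In E13.5 tracheae it stood at 8.81 and 6.38 CPM in WlsShhCre libraries and at 3.65 and 3.75 CPM in controls. Both WlsShhCre libraries were above both controls, although they differed more from each other than the controls did. The log2 fold change was 1.04 (SE 0.25, edgeR adjusted p = 0.0139), and the call was lost with DESeq2 (adjusted p = 0.0754) and without E13.5 control replicate 1 (0.0987), control replicate 2 (0.0723) or WlsShhCre replicate 1 (0.111). At E11.5 Chrm3 stood at 4.38 and 2.91 CPM in WlsShhCre libraries and at 3.13 and 2.83 CPM in controls, which overlapped (log2 fold change 0.28, SE 0.28, edgeR adjusted p = 0.940). Its genotype effects at the stages differed by 0.76, which did not pass (edgeR adjusted p = 0.364).

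Ednra encodes the endothelin receptor of vascular smooth muscle and of neural crest derived mesenchyme (Entrez 13617), and it was the only one of the 9 genes that fell with the deletion. At E13.5 it stood at 86.0 and 93.5 CPM in WlsShhCre libraries and at 126 and 124 CPM in controls. The groups did not overlap, and the log2 fold change was -0.48 (SE 0.09, edgeR adjusted p = 0.00712); without E13.5 control replicate 1 the adjusted p was 0.0582. At E11.5 it stood at 119 and 96.1 CPM in WlsShhCre libraries and at 132 and 146 CPM in controls. The groups did not overlap at this stage either, and the log2 fold change of -0.37 (SE 0.09) did not pass (edgeR adjusted p = 0.200), though without E11.5 WlsShhCre replicate 1 it was -0.53 with an adjusted p of 0.0270. The effects at the stages differed by -0.10 (SE 0.13, edgeR adjusted p = 0.787). Ednra shares 91 of its 5476 exonic bases with the opposite-strand transcript 4933431K23Rik.

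Prkg1 encodes the cGMP-dependent kinase that relaxes smooth muscle (Entrez 19091). It stood at 38.4 and 37.5 CPM in E13.5 WlsShhCre libraries and at 45.2 and 41.4 CPM in controls. The groups did not overlap but lay close, and the log2 fold change of -0.19 (SE 0.10) did not pass the test (edgeR adjusted p = 0.273). At E11.5 Prkg1 stood at 41.7 and 34.7 CPM in WlsShhCre libraries and at 37.2 and 43.6 CPM in controls, which overlapped (log2 fold change -0.08, SE 0.10, edgeR adjusted p = 0.957). It was the only one of the 9 genes that passed no test of genotype, stage or interaction in which it was tested.

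Pde5a encodes the phosphodiesterase that breaks down cGMP and so ends its relaxing signal (Entrez 242202). The later stage gave 318 and 403 CPM in WlsShhCre libraries and 114 and 120 CPM in controls. The means were 360 ± 60.1 CPM in WlsShhCre libraries and 117 ± 4.20 CPM in controls (SD, n = 2 each). Both WlsShhCre libraries were well above both controls, and Pde5a rose by 1.63 on the log2 scale (SE 0.11, edgeR adjusted p = 3.68e-05). At E11.5 it stood at 211 and 235 CPM in WlsShhCre libraries and at 196 and 196 CPM in controls, and the groups did not overlap, but the log2 fold change of 0.19 (SE 0.11) did not pass (edgeR adjusted p = 0.794). The stage effect went in opposite directions in the genotypes. E13.5 was higher than E11.5 by 0.69 on the log2 scale in WlsShhCre tracheae and lower, at -0.75, in controls (edgeR adjusted p = 7.26e-04 and 7.85e-04). The interaction was 1.44 (SE 0.15, edgeR adjusted p = 0.00161). Pde5a shares 55 of its 9831 exonic bases with the opposite-strand transcript 4930447N08Rik.

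**Figure D2:**
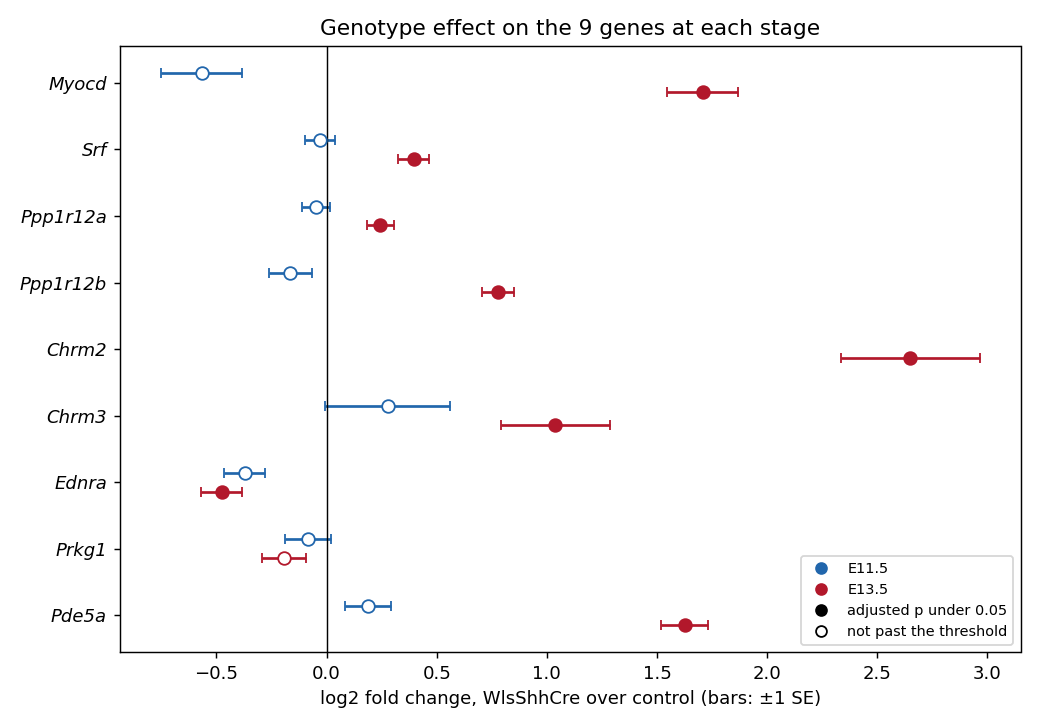
Log2 fold change of WlsShhCre over control for the 9 genes at E11.5 (blue) and E13.5 (red), with bars of 1 SE and filled points for an edgeR adjusted p under 0.05. All E11.5 points are open, between -0.57 (Myocd) and 0.28 (Chrm3), and at E13.5 8 points are filled, from -0.48 (Ednra) to 2.65 (Chrm2), whose E11.5 point is missing because its counts were 0.

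Over both stages, 4 of the 8 genes with a test had a larger genotype effect at E13.5 than at E11.5, namely Myocd, Pde5a, Ppp1r12b and Srf. The share of all genes tested that passed this interaction was 3.34%, with 1.63% higher and 1.70% lower. The 8 genes belong to a set chosen with earlier results of these data known. Ppp1r12a, Chrm3, Ednra and Prkg1 had differences that did not pass. Myocd, Pde5a and Ppp1r12b passed in every alternative fit and whichever library was left out, with adjusted p of at most 0.0485. The interaction compares ratios within each table, so gene length cancels, although a different set of exons can still count different transcripts of Myocd and Ppp1r12b.

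The stages could be compared for the 6 genes whose gene model had about the same length in both tables, namely Srf, Ppp1r12a, Chrm3, Ednra, Prkg1 and Pde5a. In WlsShhCre tracheae 5 of 6 differed between E13.5 and E11.5, 3 higher and 2 lower, where 48.5% of all genes tested did, 23.9% higher and 24.5% lower. In controls 2 of 6 differed, both lower at E13.5, where 42.4% of all genes did, 21.4% higher and 21.0% lower. With 6 genes, neither count stands far from that background. In WlsShhCre tracheae E13.5 was higher for Chrm3 (1.07 on the log2 scale), Pde5a (0.69) and Ppp1r12a (0.34) and lower for Srf (-0.41) and Ednra (-0.26). The adjusted p of Ednra was 0.0411 and the call was lost without E11.5 WlsShhCre replicate 1 (0.338) or E13.5 WlsShhCre replicate 1 (0.176), with total counts only (0.0689), limma-voom (0.0531) or 4 libraries fitted (0.0732). That of Chrm3 was 0.00302 and was lost without E11.5 WlsShhCre replicate 2 (0.0501). In controls E13.5 was lower for Srf (-0.84) and Pde5a (-0.75), while the log2 differences of Ppp1r12a (0.05), Chrm3 (0.31), Ednra (-0.15) and Prkg1 (0.10) did not pass. The stages were counted in separate tables, so a stage difference cannot be told apart from a difference in how the tables were made.

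Per length, the 9 genes covered a wide range at E13.5. In WlsShhCre libraries Pde5a was highest (47.6 and 61.0 RPKM), followed by Ppp1r12a (36.2 and 38.5), Ednra (23.8 and 26.2), Srf (21.6 and 22.2), Myocd (13.8 and 17.2), Ppp1r12b (8.77 and 9.41), Chrm2 (5.26 and 7.43), Prkg1 (5.25 and 5.17) and Chrm3 (2.81 and 2.06). The libraries of neighbouring genes did not overlap, but the lower Chrm2 value lay next to the higher Prkg1 value. The RPKM of Chrm2 rests on a short gene model of 1231 bases. In controls Ednra was highest (34.8 and 34.2 RPKM), followed by Ppp1r12a (30.5 and 32.1), Pde5a (17.1 and 17.9), Srf (16.3 and 16.8), Prkg1 (6.19 and 5.64), Ppp1r12b (5.25 and 5.28), Myocd (4.47 and 4.95), Chrm3 (1.16 and 1.19) and Chrm2 (1.04 and 0.886). Pde5a thus stood first in WlsShhCre libraries and below Ednra and Ppp1r12a in controls. At E11.5 the WlsShhCre libraries of Pde5a (31.2 and 34.6 RPKM) lay above those of Ppp1r12a (30.2 and 27.6) and Srf (27.6 and 29.4), and those of Ednra (32.4 and 26.2) overlapped all 3. In controls Ednra (35.9 and 39.2) stood above the other 3 genes (26.9 to 30.9).

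The other genes of the same pathways differed by group. The gene lists, like the 9 genes, were chosen with earlier results of these data known. Among 18 contractile and cytoskeletal smooth muscle genes, 11 rose at E13.5, none fell and 7 did not pass, where 5.97% of all genes tested rose. The list's median log2 fold change was 0.56. The largest changes were those of Myh11, the smooth muscle myosin heavy chain (1.93, edgeR adjusted p = 0.00672), of the actin nucleator Lmod1 (1.43, 8.19e-04), of the actin-bundling Synpo2 (1.11, 7.40e-04), of Acta2 (1.10, 0.0352) and of the tropomyosin Tpm2 (0.93, 4.99e-05). Myh11 had 721 and 873 CPM in E13.5 WlsShhCre libraries and 175 and 245 CPM in controls. At E11.5 it had 28.0 and 27.2 CPM in WlsShhCre libraries and 46.5 and 58.8 CPM in controls, so the order of the groups was the opposite at the earlier stage, as for Myocd. The call for Myh11 was lost when 4 libraries alone were fitted (edgeR adjusted p = 0.0691). The call for Acta2 was lost without any 1 of the 4 E13.5 libraries, with edgeR adjusted p between 0.0910 and 0.179, and without the low-count filter (0.0548). At E11.5 Cnn1, the calponin gene, was the only gene of all 5 pathway lists that passed, and it fell by 0.91 on the log2 scale (edgeR adjusted p = 0.0119), with 14.3 and 13.1 CPM in WlsShhCre libraries and 24.6 and 26.6 CPM in controls. That call was lost without any 1 of the 4 E11.5 libraries (adjusted p from 0.0840 to 0.125) and with limma-voom (0.184). At E13.5 Cnn1 rose by 0.50 on the log2 scale (edgeR adjusted p = 0.00630), with 95.9 and 120 CPM in WlsShhCre libraries and 73.8 and 79.3 CPM in controls, a call lost without E13.5 control replicate 1 (0.0727) or with 4 libraries fitted (0.0694).

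Of 13 partner factors of myocardin and SRF, other than the pair itself, none rose at E13.5, 3 fell and 10 did not pass, where 5.97% of all genes rose and 5.81% fell, and their median log2 fold change was -0.09. Gata6, a zinc finger factor of smooth muscle, fell by 1.14 on the log2 scale (edgeR adjusted p = 0.0144), the LIM protein gene Csrp2 fell by 0.67 (0.00303) and the ETS factor gene Elk3 fell by 0.30 (0.0312). The calls were lost for Gata6 without E13.5 control replicate 1 (0.0871) or with 4 libraries fitted (0.0947), and for Elk3 with limma-voom (0.0516) or without control replicate 2 (0.234), WlsShhCre replicate 1 (0.0707) or WlsShhCre replicate 2 (0.114). In the phosphatase and RhoA list, the 14 genes other than the 2 targeting subunits held 1 that rose, Arhgef12, a RhoA exchange factor, by 0.23 (edgeR adjusted p = 0.0291), and 13 that did not pass. That count lies near the 5.97% of all genes that rose. Arhgef12 lost its call without E13.5 control replicate 1 (0.213) or WlsShhCre replicate 1 (0.162).

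Of all genes tested, 5.97% rose and 5.81% fell at E13.5. Of 25 further genes for receptors linked to contraction, endothelins and Gq signalling, 5 rose at E13.5 and 20 did not pass, with a median of 0.14. The ligand gene Edn3 had the largest change (log2 fold change 1.52, edgeR adjusted p = 3.93e-05), with 40.7 and 34.0 CPM in WlsShhCre libraries and 12.3 and 13.8 CPM in controls. The oxytocin receptor gene Oxtr followed (1.15, edgeR adjusted p = 2.68e-04), with 19.6 and 18.6 CPM in WlsShhCre libraries and 9.36 and 7.87 CPM in controls. Of 20 further genes of the cGMP pathway and of relaxation, 7 rose, 3 fell and 10 did not pass, so that the list had no common direction (median -0.04). The largest changes were those of Pln, the inhibitor of the calcium pump (1.49, edgeR adjusted p = 0.0205), of Mrvi1, the substrate through which the cGMP kinase acts on calcium release (1.40, 1.70e-05), of the neuronal nitric oxide synthase gene Nos1 (1.37, 0.0226) and of the phosphodiesterase gene Pde1c (1.23, 0.00187). Mrvi1 had 48.3 and 55.6 CPM in WlsShhCre libraries and 18.6 and 20.8 CPM in controls. Pln and Nos1 were low genes, at 0.656 to 3.75 CPM at E13.5, and lost their calls with DESeq2 (0.209 and 0.365). The log2 fold change of Pln was 2.48 without E13.5 control replicate 1 and 0.91 without control replicate 2, where its adjusted p was 0.176. The Pln call was also lost without WlsShhCre replicate 1 (0.0548) or replicate 2 (0.0509) and with 4 libraries fitted (0.0583). Nos1 lost its call without control replicate 1 (0.0887), control replicate 2 (0.159) or WlsShhCre replicate 2 (0.117).

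**Figure D3:**
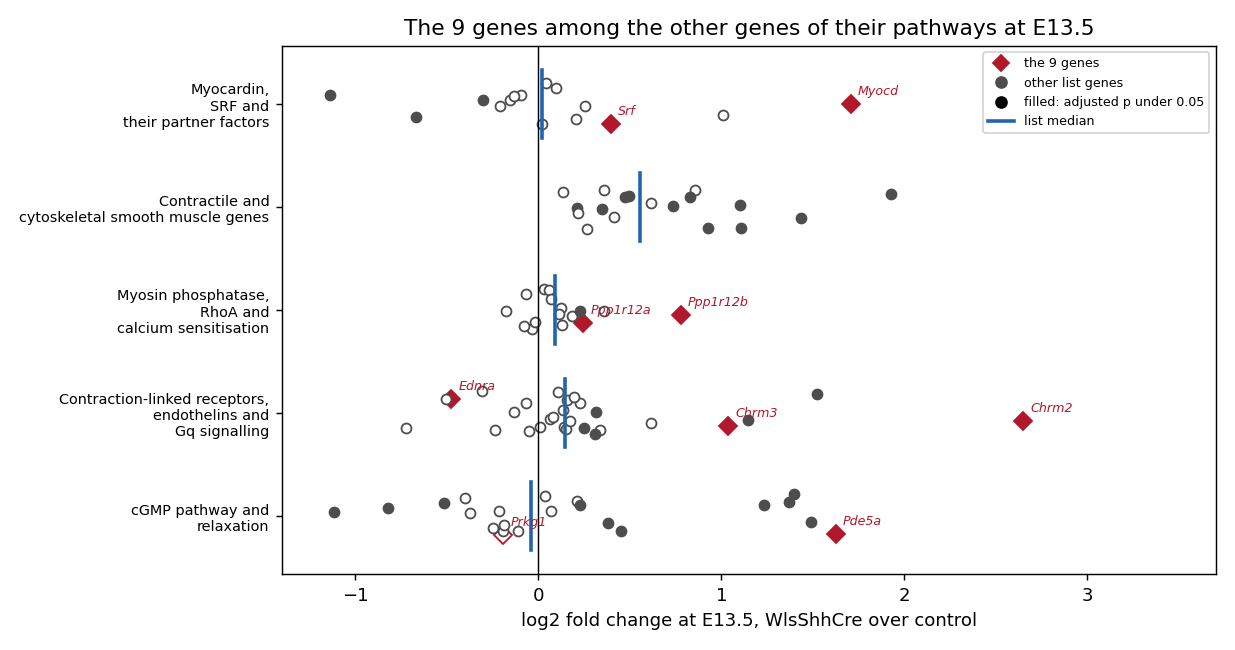
Log2 fold change at E13.5, WlsShhCre over control, of the genes tested in 5 pathway lists, with diamonds for the 9 genes, circles for the other list genes, filled symbols for an edgeR adjusted p under 0.05 and blue lines for list medians. All 18 contractile genes lie above 0 (median 0.56), whereas the medians of the other lists lie between -0.04 and 0.15, and Myocd, Chrm2 and Pde5a stand at the right edge of theirs.

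Markers of other cell types that could bring the same transcripts moved with genotype to different degrees. Of all genes tested, 5.97% were higher and 5.81% lower at E13.5, and marker lists with 1 gene passing lie near those shares by count. The median log2 fold changes of those lists were 1.77 for skeletal muscle and -0.94 for erythroid cells. They were -0.25 for neurons, glia and neural crest and -0.29 for immune cells. The 10 markers of vascular mural cells, which also express Myocd, Ednra and Pde5a, summed to 569 and 665 CPM in E13.5 WlsShhCre libraries and to 607 and 701 CPM in controls, which overlapped. Of the 9 tested, 2 were higher, 1 was lower and 6 did not pass, and Higd1b was at under 3 counts over the E13.5 libraries. The 11 markers of cardiac muscle, where Myocd and Chrm2 are also expressed, summed to 803 and 265 CPM in WlsShhCre libraries and to 1879 and 876 CPM in controls, with 2 of 11 lower. The skeletal muscle markers summed to 510 and 197 CPM in WlsShhCre libraries and to 106 and 116 CPM in controls, with 1 of 10 higher. The 10 endothelial markers summed to 387 and 436 CPM in WlsShhCre libraries and to 539 and 612 CPM in controls, with 5 lower.

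The airway epithelial markers were higher, at 1198 and 1229 CPM in WlsShhCre libraries and 782 and 814 CPM in controls, with 9 of 11 passing. The 8 cartilage markers tested held 3 that fell, and the list summed to 874 and 545 CPM in WlsShhCre libraries and to 1244 and 1279 CPM in controls, with Matn1 at under 3 counts. Erythroid markers summed to 844 and 915 CPM in WlsShhCre libraries and to 1693 and 1329 CPM in controls, with 1 of 10 lower. The sums for neurons, glia and neural crest overlapped (252 and 306 CPM in WlsShhCre libraries, 328 and 291 CPM in controls, 1 of 11 higher), and the immune sums did not (86.7 and 116 CPM in WlsShhCre libraries, 136 and 121 CPM in controls, 1 of 10 lower). Adult intestinal markers summed to 4.67 and 5.56 CPM in E13.5 WlsShhCre libraries and to 33.9 and 32.8 CPM in controls. Of 10 tested, 9 were lower, and 7 and 6 of 12 were at 0 in WlsShhCre libraries. At E11.5 the same markers summed to 51.4 and 42.9 CPM in WlsShhCre libraries and to 42.0 and 32.3 CPM in controls. Low intestinal sums were thus found only in the E13.5 WlsShhCre libraries, which were also the deepest. The part of any of these in the 9 genes' results was not tested.

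**Figure D4:**
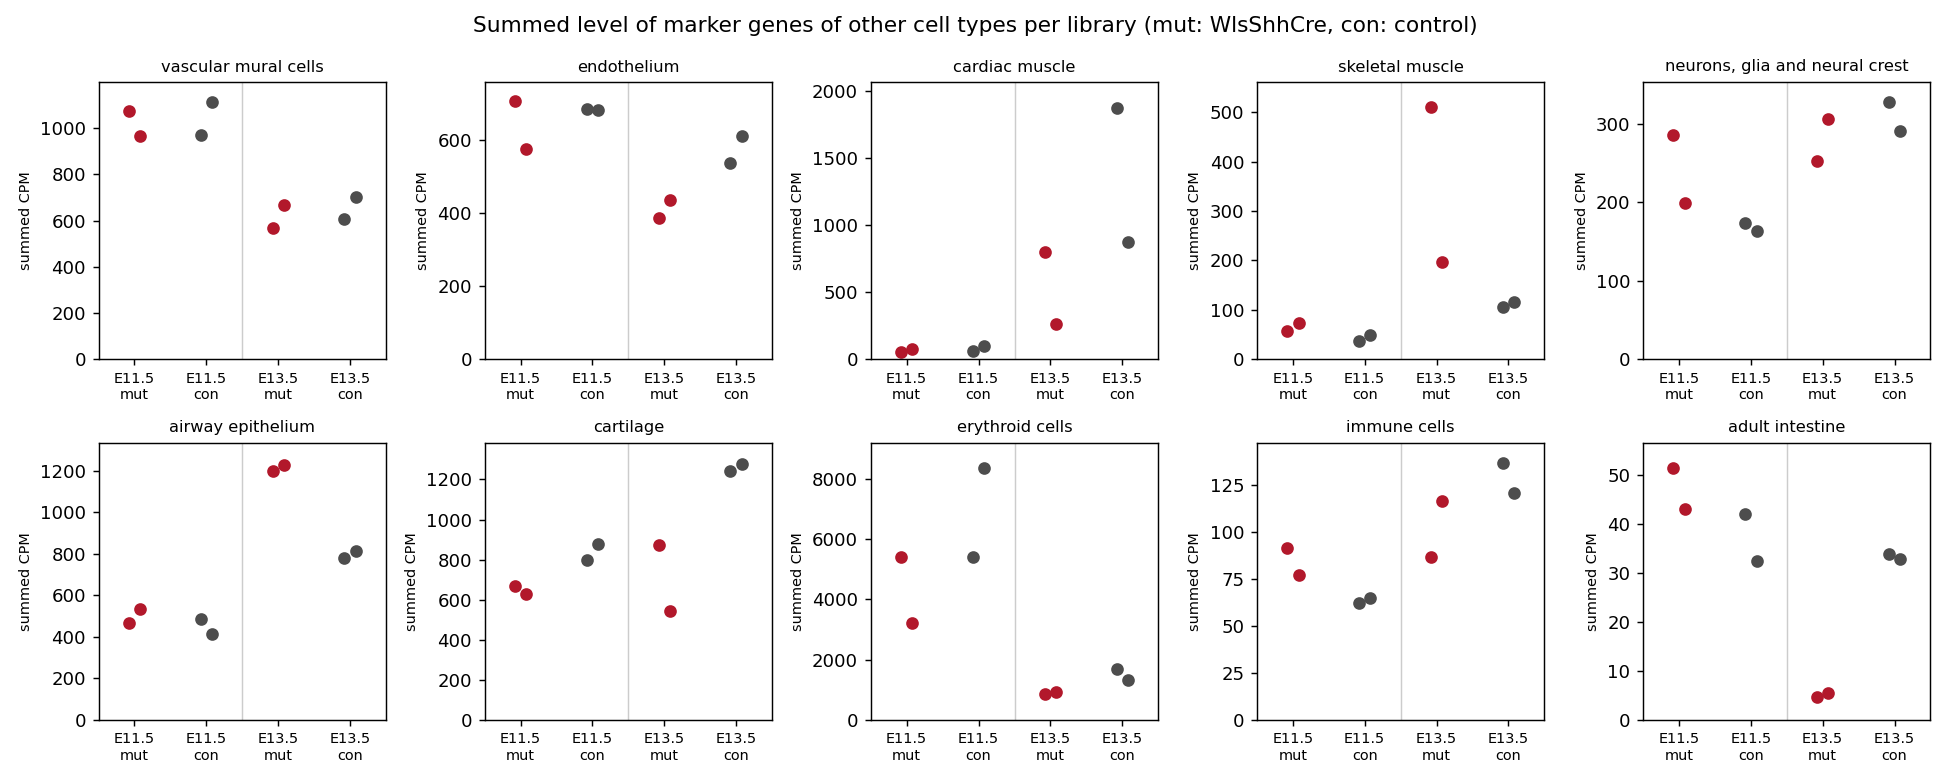
Summed CPM of the marker genes of 10 other cell types or tissues in each library, on linear axes from 0, with WlsShhCre (mut, red) and control (con, grey) at each stage. At E13.5 the WlsShhCre sums lie above the control sums for airway epithelium and skeletal muscle, overlap them for mural cells and the neural list, and lie below them for the others.

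The genes whose log2 CPM followed each of the 9 most closely over the 8 libraries were searched among 11751 tested genes with a mean of at least 5 CPM. These likenesses are descriptions, since the points share stage and genotype steps and, for Myocd, Ppp1r12b and Chrm2, the change of table. Myocd was followed most closely by Psd (Pearson r = 0.988), Fst (0.983), Slc39a9 (0.979), Emilin3 (0.979) and Marchf8 (0.977), the last named from its gene ID. Pde5a was followed by Crispld2 (0.980), 4933436C20Rik (0.970) and Ppp1r3b (0.968). Srf was followed by Akirin2 (0.989), Snrnp25 (0.988) and Odf2 (0.987). The genes nearest to Ppp1r12a were Lpp (0.982), Lamb1 (0.981) and Atp6v1a (0.978), and those nearest to Ppp1r12b were Anxa6 (0.998), Inha (0.998) and Kat2b (0.998). For Chrm2 they were Btg1 (0.997), Neurl1b (0.996) and the myosin light chain gene Myl6 (0.995), and for Chrm3 Tiam1 (0.979), Tapt1 (0.978) and Atp8a1 (0.976). Chrm2 had 0 counts in every E11.5 library, so its likeness rests on the E13.5 libraries and the step between stages. The likenesses were lower for Ednra, nearest to Mras (0.961), D430019H16Rik (0.958) and Epha3 (0.952), and for Prkg1, nearest to Lpin1 (0.909), Tceb3 (0.900) and Stt3a (0.886). Chrm2 and Chrm3 had means under 5 CPM, so they were not among the genes searched and could not be named. None of the remaining members was among the nearest genes of any of the 9.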

How the data were processed

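RNA of 8 whole-trachea libraries was extracted with Trizol and made into libraries with Nextera XT, per the labels' protocols. The authors deposited 1 table per stage with an estimated count and an RPKM per gene and library, per the file headers and values. The submitters' processing notes name Bowtie2 2.1.0, TopHat2 2.0.8, Cufflinks 2.0.2, DESeq and build mm9, with no roles. Between 76.3% and 82.6% of the counts above 0 were not whole numbers (tolerance 0), so they were rounded, where the design had assumed whole counts. Entries naming no gene (2 and 6, at most 0.0253% of a library) were left out. For repeated symbols (239 with 483 entries at E11.5), counts were summed and the highest RPKM was taken. Gene model lengths implied by count and RPKM differed by over 1% between the tables for 872 of 17932 genes. Libraries within a group correlated at 0.990 to 0.992 in log2 CPM and differed by more than sampling noise.

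Tests used edgeR 4.0.16 (R 4.3.3), with filterByExpr, TMM, a robust quasi-likelihood fit of 4 group means to all 8 libraries with 4 residual degrees of freedom, and Benjamini-Hochberg adjustment over 14901 genes, called at 0.05. Alternatives included DESeq2 1.42.0, limma 3.58.1 (voom), other scalings and filters, a replicate block, and each library left out. The fits were tested on simulated data. Replicate numbers were not treated as pairs in the main fit. Deviations of same-numbered libraries correlated at 0.0740 (E11.5) and 0.0574 (E13.5) over 11751 genes. With 2 numbers per stage, these values cannot exclude pairing. The members and gene lists were chosen with earlier results of these data known. All 9 members are named, with up to 5 passing genes per pathway list and stage by size of change, Wls, and the 5 (Myocd) or 3 genes most like each member. Cnn1 at E13.5 and the genes named for their overlap were given in addition. Overlaps used the GENCODE exons on GRCm38, and promoter coordinates are on that build, not mm9.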

Additional observations from a re-analysis of the deposited data

Results flagged for a closer look

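The genotype effect differed between E13.5 and E11.5, by the interaction test of edgeR, for 4 of the 8 genes that could be tested, where 3.34% of all genes tested passed. The genes had been chosen with earlier results of these data known. The difference, on the log2 scale, was 2.27 for Myocd, 1.44 for Pde5a, 0.94 for Ppp1r12b and 0.43 for Srf. The Srf call was lost with DESeq2 (adjusted p = 0.0741), limma-voom (0.0721), a fit that was not robust (0.0530), the replicate block (0.0514) or without any of 6 of the 8 libraries. It was -0.67 for the targeted gene Wls (adjusted p = 8.54e-04), whose fall was larger at E13.5.

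Among the other named genes, the contractile genes Myh11 (2.86), Lmod1 (1.51), Cnn1 (1.41), Synpo2 (1.23) and Tpm2 (0.75) differed in the same way, as did Mrvi1 (1.39), Oxtr (1.35) and Edn3 (1.17). The effects on Nos3 (-1.01) and Npr1 (-0.87), named after their values were seen, were more negative at E13.5. Their adjusted p lay between 8.30e-04 (Cnn1) and 0.0424 (Npr1). Cnn1 had passed in the lower direction at E11.5 and in the higher direction at E13.5. The calls of Myh11, Lmod1, Synpo2, Tpm2, Edn3, Oxtr, Nos3 and Npr1 were each lost without at least 1 library, with adjusted p up to 0.126 for Myh11, 0.194 for Lmod1, 0.0620 for Synpo2, 0.0708 for Tpm2, 0.0674 for Edn3, 0.0542 for Oxtr, 0.0929 for Nos3 and 0.165 for Npr1. With other fits Npr1 was lost with DESeq2 (0.0853), limma-voom (0.0844) and the non-robust fit (0.0777), Lmod1 with limma-voom (0.162) and the non-robust fit (0.0595), Oxtr with DESeq2 (0.0529) and Nos3 with limma-voom (0.0570). Groups of 2 libraries were too small to look for single libraries that stand apart.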

How the results depend on the processing

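Myocd, Srf, Ppp1r12b, Chrm2 and Pde5a passed at E13.5 in every alternative fit and whichever library was left out. With each library left out in turn, members called ranged from 5 to 7 at E13.5 and from 0 to 1 at E11.5, and all genes called from 934 to 1641 at E13.5, from 20 to 69 at E11.5 and from 279 to 675 for the interaction. Without E13.5 control replicate 1, members called fell to 5 and all genes to 934, and the interaction had 287 genes. The interaction had 279 genes without E11.5 control replicate 1 and 320 without E11.5 WlsShhCre replicate 1, and at E11.5 20 genes were called without E11.5 control replicate 1. At E11.5 all genes called were 92 without the filter, 90 with DESeq2, 29 with limma-voom, 90 with the replicate block and 120 with 4 libraries fitted. Beside these and the single libraries named, no count moved by over 1.5 times. Replicate numbers were not treated as pairs in the main fit. With the replicate block, 1827 genes were called at E13.5, with 0 members called at E11.5 and 8 at E13.5. The edgeR adjusted p with the block was 0.0514 for the Srf interaction and 0.0607 for the stage effect of Ednra in WlsShhCre tracheae. For the E13.5 effects of Acta2 and Arhgef12 it was 0.122 and 0.0504.

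Log2 values that changed sign were all of effects that did not pass the test. With a library left out, the E11.5 effects ranged from -0.12 to 0.060 (Srf), from -0.22 to 0.045 (Prkg1), from -0.034 to 0.55 (Chrm3) and from -0.11 to 0.015 (Ppp1r12a). The interactions ranged from -0.24 to 0.029 (Prkg1) and from -0.25 to 0.056 (Ednra), and the stage effects of Prkg1 from -0.14 to 0.12 in WlsShhCre tracheae and from -0.015 to 0.21 in controls. The stage effect of Prkg1 in WlsShhCre tracheae was 0.022 with total counts only and 0.0017 with limma-voom. The causes were not tested. Leaving out 1 library leaves a group with 1, which is then assumed to vary like the others. Depth limits Chrm2 most, with 13.54 and 11.58 counts in the E13.5 controls.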

Other observations

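The mural cell list held genes that moved in opposite directions at E13.5, and they were singled out after their values were seen. Kcnj8 and Abcc9, which encode the pore and the sulfonylurea subunit of an ATP-sensitive potassium channel of smooth muscle and pericytes, were higher. Kcnj8 had 19.98 and 29.8 CPM in WlsShhCre libraries and 7.68 and 10.03 CPM in controls (log2 fold change 1.49, edgeR adjusted p = 0.00117). Abcc9 had 42.8 and 61.7 CPM in WlsShhCre libraries and 22.6 and 28.9 CPM in controls (1.02, edgeR adjusted p = 0.0138), and its call was lost without E13.5 control replicate 1 (0.0855) or with 4 libraries fitted (0.134). Pdgfrb, the receptor of mural cells and of mesenchyme, had 86.8 and 114 CPM in WlsShhCre libraries and 152 and 177 CPM in controls (-0.72, edgeR adjusted p = 0.0331), a call lost without control replicate 1 (0.0641) or control replicate 2 (0.127), without the low-count filter (0.0689) and with 4 libraries fitted (0.119).

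Of the 3 genes of the cGMP list that were lower at E13.5, 2 act in the synthesis of cGMP and were singled out after their values were seen. Other genes of cGMP synthesis in that list did not fall in the edgeR test. Gucy1a3 (log2 fold change -0.11), Gucy1a2 (0.21), Gucy1b3 (0.07) and Npr2 (-0.19) did not pass, and Nos1 rose (1.37), a call lost with DESeq2. The natriuretic peptide receptor gene Npr1 had 10.5 and 14.2 CPM in WlsShhCre libraries and 21.9 and 21.6 CPM in controls (log2 fold change -0.82, edgeR adjusted p = 0.00276). The endothelial nitric oxide synthase gene Nos3 had 6.72 and 6.67 CPM in WlsShhCre libraries and 14.7 and 14.3 CPM in controls (-1.12, edgeR adjusted p = 3.62e-04). Endothelial markers were lower in the same libraries, and their part in these values was not tested.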
